A study of Mus musculus and Homo sapiens with 17 samples.

Results

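The set described here holds 10 mouse genes: Atp6v0c and its copy Atp6v0c-ps2, Hmga1 and its copy Hmga1b, Dynlt1b, Tmem181b-ps, Gm9825, Gm10036, Gm7850 and Gm4864. They are part of the 54532 named features of the mouse table. They were selected on these data, for counts that separate libraries labelled wild type (WT) from libraries labelled Dusp1 knockout (KO), so their difference between those labels is given as a description without a test. Dusp1 encodes a phosphatase that inactivates MAP kinases. The 11 mouse libraries came from WT skin (n = 3), WT squamous cell carcinoma (SCC, n = 3), KO papilloma, a benign skin tumour (n = 3), and KO SCC (n = 2). All of these mice had received the carcinogen and promoter treatment DMBA/TPA and carry the strain label C57BL/6-129. A431 is a human epidermoid carcinoma line, and its 6 libraries came from tumours grown in mice for 3 weeks, with a guide RNA against Tomato (n = 3) or against DUSP1 (n = 3). Whole frozen sections were used for the mouse RNA, so every cell type of a section entered it, and fewer cells of a type cannot be told apart from less RNA per cell. Skin was sampled only with the WT label and papilloma only with the KO label, so genotype and lesion cannot be told apart outside SCC.

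A processed pseudogene, or retrocopy, arises when the spliced RNA of a gene is copied back into DNA and inserted elsewhere, so it lacks introns and resembles the exons of its parent gene. Tandem duplication gives copies of another kind, which keep introns and lie side by side. Reads from near-identical copies often match more than 1 place in the genome, and inbred strains such as C57BL/6 and 129 differ in single bases and in the copies they carry. No source used here says how reads that match several places were counted, and the parts of shared reads and of strain in the values that follow were not tested.

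The copies were matched to their closest protein-coding transcript by alignment in the GENCODE M21 annotation (GRCm38, the build also called mm10). For 6 of the 8 copies this parent lies on another chromosome, while Dynlt1b and Tmem181b-ps have their closest relative in the same block of chromosome 17. The windows printed here, for 5 of the 8, show places where a member and its relative differ. Each holds 41 bases of coding sequence of the relative and the bases of the member aligned to them, with the differing bases in capitals. Atp6v0c-ps2 (chr6:37806086-37806550, + strand, no intron) aligned to Atp6v0c (chr17:24163866-24169702, - strand) over 465 bases with 1 mismatch (99.78% identity). Its window lies at chr6:37806176-37806216, and that of the parent lies in exon 2 of 3 at chr17:24164831-24164871.
Atp6v0c-ps2: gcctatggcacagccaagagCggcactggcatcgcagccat
Atp6v0c: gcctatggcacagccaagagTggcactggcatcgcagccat
Gm9825 (chr6:7982541-7983383, - strand, no intron) aligned to Rnps1 (chr17:24414565-24425901, + strand) over 843 bases with 5 mismatches. The pair is shown for 1 of the 5, at chr6:7982875-7982915 and, in exon 6 of 8, at chr17:24422168-24422208.
Gm9825: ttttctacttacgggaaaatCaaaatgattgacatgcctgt
Rnps1: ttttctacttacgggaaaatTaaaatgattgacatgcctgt
Dynlt1b (chr17:6430112-6436296, + strand) is a protein-coding gene of a tandem family, and its closest relative was Dynlt1c (chr17:6601671-6609774, + strand), with 6 mismatches in 771 bases. The windows cross an exon junction, and in the genome they span chr17:6430212-6431893 and chr17:6601810-6603500.
Dynlt1b: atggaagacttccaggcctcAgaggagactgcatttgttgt
Dynlt1c: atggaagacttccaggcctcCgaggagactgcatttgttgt
Tmem181b-ps (chr17:6438524-6467022, - strand) is annotated as a transcribed unprocessed pseudogene, with 14 mismatches to Tmem181a (chr17:6256860-6308314, + strand) in 1680 aligned bases. Its window lies at chr17:6441427-6441467, and that of Tmem181a lies in the last exon, exon 17, at chr17:6305380-6305420.
Tmem181b-ps: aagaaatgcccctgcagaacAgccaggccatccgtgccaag
Tmem181a: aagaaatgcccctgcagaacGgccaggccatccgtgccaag
Gm4864 (chr12:77623549-77625009, - strand, no intron) was the least similar, with 54 mismatches and 26 gap bases to Hdac1 (chr4:129516104-129542713, - strand) in 1469 aligned bases. The window shown is the one of this pair with the most differences, 4. Its window lies at chr12:77623828-77623868, and that of Hdac1 lies in exon 11 of 14 at chr4:129517840-129517880.
Gm4864: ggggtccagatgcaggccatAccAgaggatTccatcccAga
Hdac1: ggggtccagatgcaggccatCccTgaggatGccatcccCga

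Hmga1b (chr11:120762794-120764419, + strand), which is annotated as protein-coding, aligned to Hmga1 (chr17:27556497-27563674, + strand) over 1602 bases with 3 mismatches. None of the 3 gave a window made up wholly of coding bases of Hmga1, so no window is shown for this pair. The longest stretch identical in both was 656 bases for Hmga1b and 354 bases for Atp6v0c-ps2, and it was 101 bases for Gm4864.

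Library totals were 34378300 to 47883625 counts in the mouse and 41183478 to 53456450 counts in A431. Levels are in CPM, the usual scaling of counts to a common library size, after TMM, a correction for differences in composition, and they are not divided by gene length. Keratinocyte markers (8 genes) summed to 7810 to 17200 CPM in WT skin, 36500 to 38400 in WT SCC, 40600 to 64600 in KO papilloma and 46000 to 49600 in KO SCC, so keratinocyte transcripts were present in every group. Leukocyte markers (5 genes) summed to 215 to 886 CPM in the WT libraries and 63.9 to 146 CPM in the KO libraries. Skeletal muscle markers (4 genes) reached 4380 to 5160 CPM in WT skin and at most 80.3 CPM elsewhere. Dusp1 transcript was not lower with the KO label: its range was 52.4 to 109 CPM over 6 WT and 109 to 174 CPM over 5 KO libraries. Every KO library lay above every WT library, but only just, with a gap of 0.0 in log2 CPM. Between SCC of both labels the fitted log2 fold change (KO over WT) was 1.07 ± 0.25 (SE). Whether the deletion leaves a counted transcript is not stated in the labels. In KO SCC replicate 2, 4 Y-linked genes held 4779 counts and Xist stood at 15.3 CPM, whereas the other 4 KO libraries had 0 counts of those genes and Xist at 203 to 300 CPM. Replicates 1 and 2 of WT skin held 6624 and 9552 counts of those genes, and the other WT libraries 0 to 7. The labels do not tie libraries to animals, so p-values measure the spread between libraries.

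In 9 of the 10 members the 6 WT and 5 KO libraries did not overlap, 5 of them higher with the KO label and 4 higher with the WT label. Of all 22371 genes tested, 4.47% were higher in every KO library and 3.94% in every WT library, 8.41% in all. The members were chosen for this, so nothing is read from their count. Hmga1 was the member whose groups overlapped. All 10 members passed the filter on low counts over the 11 libraries, Gm4864 only through the WT libraries, where it is high. Gm4864 did not pass in a fit of the KO groups alone, nor Gm9825 in a fit of the WT groups alone. Of the members, 9 still separated the labels without KO SCC replicate 2.

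The V-ATPase pumps protons into lysosomes and other acidic compartments, and Atp6v0c encodes a subunit of the ring that carries the protons through the membrane. Atp6v0c-ps2 stood at 0.794, 0.463 and 0.405 CPM in WT skin replicates 1 to 3 and at 0.755, 1.13 and 1.19 CPM in WT SCC. In KO papilloma it stood at 142, 88.8 and 125 CPM, and in KO SCC at 117 and 102 CPM. All KO libraries lay far above all WT libraries, with a gap of 6.20 in log2 CPM between the lowest KO and the highest WT library, the widest of all genes tested. The fitted log2 fold change between the means of the KO and WT groups was 7.24 ± 0.22 (SE). Atp6v0c went the other way, at 38.9, 30.9 and 29.9 CPM in WT skin, 44.0, 57.5 and 54 CPM in WT SCC, 13.3, 9.10 and 11.9 CPM in KO papilloma, and 10.3 and 11.3 CPM in KO SCC. Every KO library was below every WT library, and the fitted log2 fold change was -1.90 ± 0.14. Of the counts of both genes together, the copy held 1.34 to 2.15% in the WT libraries and 90.1 to 91.9% in the KO libraries, so the row that received most counts changed with the label. With 1540 to 5853 counts per library behind each share, the 95% Wilson intervals ran from 0.892 to 2.82% in WT and from 89.2 to 92.7% in KO; these intervals cover counting error only.

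**Figure D1:**
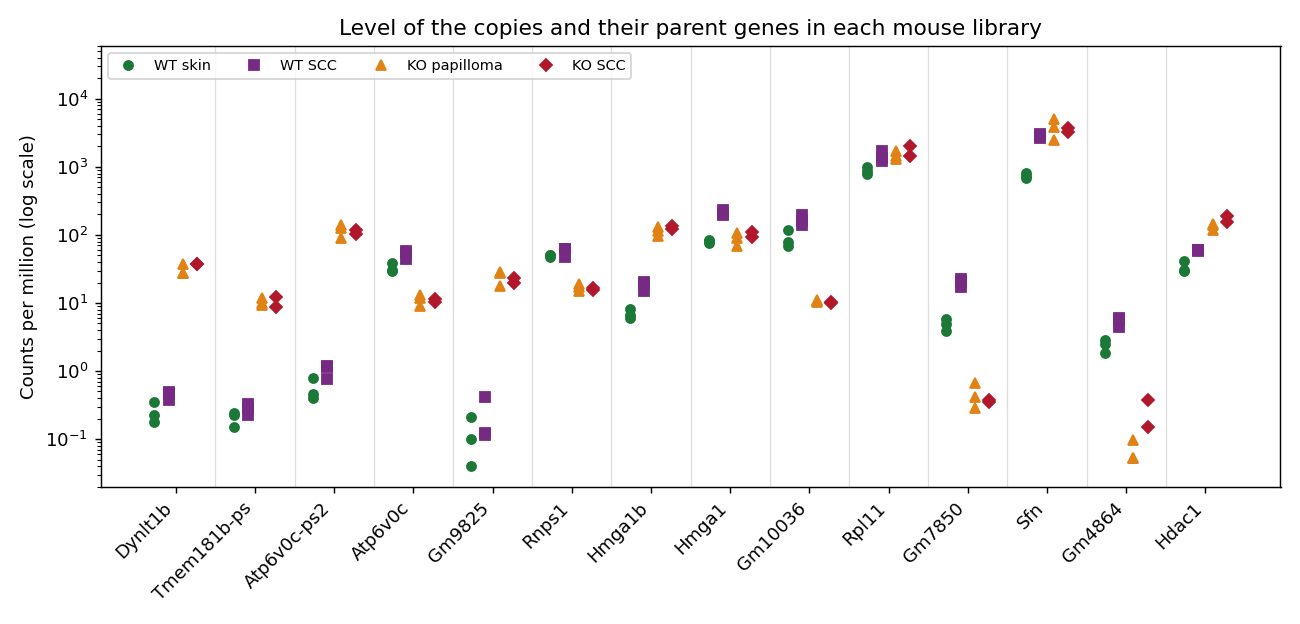
Level of each member and parent gene in the 11 mouse libraries, in CPM on a log scale; each symbol is 1 library (circles WT skin, squares WT SCC, triangles KO papilloma, diamonds KO SCC). Atp6v0c-ps2 lies between 0.405 and 1.19 CPM in WT and between 88.8 and 142 CPM in KO, and Gm10036 between 69.6 and 198 CPM in WT and between 9.93 and 11 CPM in KO.

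Rnps1, the parent of Gm9825, encodes an RNA-binding protein that takes part in splicing and in the exon junction complex. Gm9825 held 2 to 18 counts in each WT library and 736 to 1069 in each KO library. Its level was 0.0993, 0.0403 and 0.212 CPM in WT skin, 0.116, 0.124 and 0.419 CPM in WT SCC, 28.4, 17.9 and 27.8 CPM in KO papilloma, and 23.3 and 19.6 CPM in KO SCC. WT skin replicate 2 was below the limit that 3 counts set in it (0.0604 CPM). Rnps1 was lower in every KO library, at 14.8 to 18.9 CPM, than in any WT library, at 47.5 to 62.9 CPM. The share of Gm9825 in their summed counts was 0.0790 to 0.680% in WT and 54.8 to 61.8% in KO. This pair had the same form as Atp6v0c-ps2 and Atp6v0c: the copy was higher and the parent lower with the KO label.

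Hmga1 encodes an architectural chromatin protein that binds AT-rich DNA and is abundant in embryonic and tumour cells. Hmga1b stood at 8.19, 6.55 and 5.94 CPM in WT skin, 15.2, 19.3 and 20.2 CPM in WT SCC, 116, 95.5 and 132 CPM in KO papilloma, and 124 and 134 CPM in KO SCC. The groups were apart by 2.24 in log2 CPM. Hmga1 itself stood at 85.2, 75.4 and 82.7 CPM in WT skin, 195, 232 and 213 CPM in WT SCC, 90.9, 69.6 and 107 CPM in KO papilloma, and 109 and 94.1 CPM in KO SCC. The KO libraries ranged from below to above those of WT skin, and all lay below WT SCC. Between SCC of both labels the fitted log2 fold change (KO over WT) was -1.07 ± 0.18 for Hmga1 and 2.82 ± 0.19 for Hmga1b, and with both rows summed it was 0.00 ± 0.16. Hmga1b held 6.70 to 8.78% of the summed counts in WT and 53.2 to 58.7% in KO.

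Dynlt1b encodes a light chain of cytoplasmic dynein, the motor that moves cargo towards the minus ends of microtubules. It stood at 0.348, 0.222 and 0.176 CPM in WT skin, 0.465, 0.371 and 0.489 CPM in WT SCC, 27.9, 37.9 and 27.5 CPM in KO papilloma, and 37.3 and 37.8 CPM in KO SCC. In counts these were 10 to 21 per WT library and 1050 to 1559 per KO library. The other Dynlt1 rows of the tandem family did not separate the labels: Dynlt1c stood at 4.79 to 8.68 CPM in WT and 5.07 to 11 CPM in KO, and Dynlt1a and Dynlt1f overlapped as well. Dynlt1-ps1, a processed pseudogene on chromosome 6 identical to Dynlt1c over the aligned bases, was at 5.96 to 20.2 CPM in WT and 31.4 to 62.7 CPM in KO without overlap. Dynlt1b held 0.516 to 1.55% of the counts of the 5 Dynlt1 rows in WT and 26.1 to 34.4% in KO.

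Tmem181b-ps lies beside Dynlt1b. Both are in a block of 0.399 Mb that holds all Dynlt1 and Tmem181 rows of chromosome 17 and is about 20.1 Mb from Dusp1. It stood at 0.149, 0.242 and 0.229 CPM in WT skin, 0.290, 0.227 and 0.326 CPM in WT SCC, 11.8, 10.0 and 9.36 CPM in KO papilloma, and 8.60 and 12.3 CPM in KO SCC. The gap was 4.62 in log2 CPM. Tmem181a did not fall with it: the means were 35.0 CPM over the WT libraries and 40.0 CPM over the KO libraries, and its groups overlapped. The pseudogene took 0.530 to 0.887% of the counts of both in WT and 18 to 24.0% in KO.

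Gm10036, Gm7850 and Gm4864, all higher under the WT label, are copies of genes on chromosome 4. Rpl11, the parent of Gm10036, encodes a protein of the large ribosomal subunit that also binds the p53 regulator Mdm2. Gm10036 (chromosome 18, 15832794 to 15833327) had 4 mismatches to Rpl11 in 534 aligned bases. It stood at 69.6, 79.5 and 118 CPM in WT skin, 198, 158 and 138 CPM in WT SCC, 10.5, 10.7 and 11 CPM in KO papilloma, and 9.93 and 10.4 CPM in KO SCC. The 5 KO libraries were close to each other and at least 2.66 in log2 CPM below any WT library. Rpl11 overlapped between the labels (798 to 1700 CPM in WT, 1310 to 2040 CPM in KO), and the copy held 7.50 to 10.7% of the summed counts in WT and 0.483 to 0.798% in KO.

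Sfn encodes 14-3-3 sigma, an epithelial protein of cell cycle arrest and keratinocyte differentiation. Its copy Gm7850 (chromosome 8, 71523574 to 71524285, no intron) aligned to Sfn (chromosome 4, 133600556 to 133602168, 1 exon) over 712 bases with 17 mismatches. Gm7850 stood at 5.81, 4.98 and 3.88 CPM in WT skin, 17.1, 20.2 and 22.4 CPM in WT SCC, 0.664, 0.414 and 0.288 CPM in KO papilloma, and 0.375 and 0.348 CPM in KO SCC. Sfn stood at 682 to 810 CPM in WT skin, 2650 to 3000 CPM in WT SCC and 2490 to 5040 CPM in the KO libraries, so Gm7850 was far lower in KO than in WT SCC at overlapping levels of Sfn. The share of the copy was 0.566 to 0.784% in WT and 0.00752 to 0.0166% in KO. Hdac1 encodes a histone deacetylase. Its copy Gm4864 stood at 1.86, 2.48 and 2.89 CPM in WT skin, 5.57, 4.43 and 5.94 CPM in WT SCC, 0.0531, 0.0973 and 0.0524 CPM in KO papilloma, and 0.375 and 0.149 CPM in KO SCC. The KO values rest on 2 to 13 counts per library, of which the highest was KO SCC replicate 1. Hdac1 was at 29.5 to 60.7 CPM in WT and 118 to 189 CPM in KO, without overlap, in the direction opposite to its copy. The share of Gm4864 was 5.79 to 9.32% in WT and 0.0367 to 0.198% in KO.

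**Figure D2:**
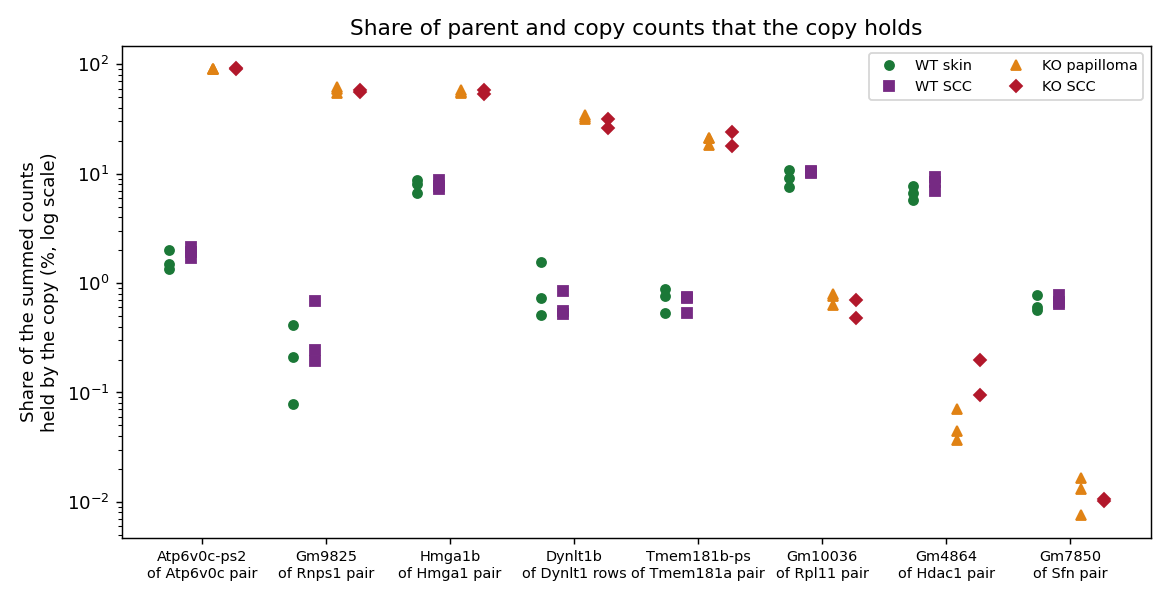
Share of the summed counts of copy and parent that the copy holds, in percent on a log scale, per library (for Dynlt1b, of the 5 Dynlt1 rows). For Atp6v0c-ps2 the KO libraries lie at 90.1 to 91.9% and the WT libraries at 1.34 to 2.15%, and for Gm10036 the KO libraries lie at 0.483 to 0.798% and the WT libraries at 7.50 to 10.7%.

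The mean CPM of copy and parent differed in opposite directions between the labels in 6 of 7 pairs, leaving aside the tandem gene Dynlt1b; the pair of Tmem181 rows was the exception. Of the 6 parents, Hmga1, Rpl11 and Sfn overlapped between the labels. Against WT skin, Hmga1 went the same way as Hmga1b, with log2 fold changes of 0.14 ± 0.16 in KO papilloma and 0.33 ± 0.18 in KO SCC. Against WT SCC, Rpl11 differed by 0.05 ± 0.19 and 0.30 ± 0.21 and Sfn by 0.42 ± 0.22 and 0.31 ± 0.25. Atp6v0c, Rnps1 and Hdac1 were opposite to their copies against both WT groups. Over all libraries of a label, skin and papilloma included, the sizes did not match. From the WT to the KO mean, Atp6v0c-ps2 gained 114 CPM while Atp6v0c changed by -31.3 CPM, and Hmga1b gained 108 CPM while Hmga1 changed by -52.8 CPM. Gm9825 gained 23.2 CPM and Rnps1 changed by -37.0 CPM. Among the copies higher in WT, Gm10036 changed by -116 CPM and Rpl11 by 437 CPM, Gm4864 by -3.72 CPM and Hdac1 by 103 CPM, and Gm7850 by -12.0 CPM and Sfn by 1890 CPM. These means mix lesion with label. In SCC alone, the WT and KO means were 18.3 and 129 CPM for Hmga1b and 213 and 102 CPM for Hmga1. They were 1.03 and 110 CPM for Atp6v0c-ps2, 51.8 and 10.8 CPM for Atp6v0c, and 2830 and 3510 CPM for Sfn.

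Adding the copies to the parent in each library did not bring the labels together in all families. For the Gm members each sum holds the parent and that member only. The Hdac1 sum thus leaves out Gm10093, another copy of Hdac1, with means of 25.0 CPM in WT and 9.14 CPM in KO. Alone, 3 of the 8 parent or relative genes separated the labels (Atp6v0c, Rnps1 and Hdac1), and with their copies added 5 of 8 did, beside 8.41% of all genes tested. The sums hold members that were selected for separating the labels, so nothing is read from that count. The Atp6v0c rows summed to 30.3 to 58.6 CPM in WT and 97.9 to 156 CPM in KO, so the sum was higher in KO although the parent was lower. The sum for Rnps1 and Gm9825 stayed higher in WT, at 47.6 to 63.0 CPM against 32.7 to 47.3 CPM in KO, close to touching. The Dynlt1 rows summed to 22.4 to 83.1 CPM in WT and 84.4 to 143 CPM in KO, and the Tmem181 rows to 25.8 to 43.8 CPM and 46.7 to 55.5 CPM. Sums of the Hmga1, Rpl11 and Sfn families overlapped between the labels; that of Hmga1 was 81.9 to 251 CPM in WT and 165 to 240 CPM in KO.

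**Figure D3:**
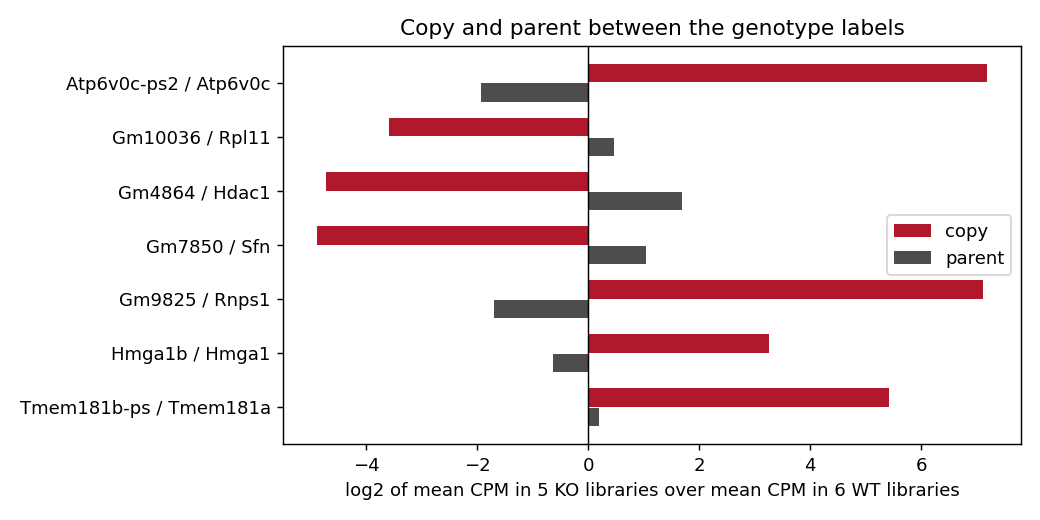
Log2 ratio of the mean CPM of the 5 KO libraries to that of the 6 WT libraries, for each copy (red) and its parent (grey); bars start at 0. Copy and parent means point in opposite directions in 6 of 7 pairs, although Hmga1, Rpl11 and Sfn overlap between the labels, and for Tmem181b-ps and Tmem181a both point to KO.

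Within 1 genotype label the members gave results that their selection did not use. From WT skin to WT SCC, 8 of 10 members rose and 0 fell (edgeR's quasi-likelihood test, Benjamini-Hochberg adjusted p under 0.05), where 40.5% of all genes tested passed in either direction, 3771 higher and 5283 lower. The median log2 fold change was 0.91 over the 10 members and -0.16 over all genes tested. These members include Gm9825, which did not pass the filter in a fit of the WT groups alone. In a fit of the WT groups alone Dynlt1b and Atp6v0c-ps2 lost their calls (adjusted p = 0.229 and 0.164). Hmga1 rose by 1.39 ± 0.16 (SE, adjusted p = 9.09e-05) and Hmga1b by 1.41 ± 0.17 (adjusted p = 0.000125). Gm7850 rose by 2.03 ± 0.26 (adjusted p = 0.000178) and its parent Sfn by 1.93 ± 0.23 (adjusted p = 0.000106). For these pairs the copy moved as the parent did, with differences of 0.02 and 0.10 in log2 fold change. Gm10036 rose by 0.89 ± 0.19 and Rpl11 by 0.70 ± 0.19 (adjusted p = 0.00398 and 0.0123). Gm4864 rose by 1.14 ± 0.33 and Hdac1 by 0.82 ± 0.15 (adjusted p = 0.0191 and 0.00144). The increase of Atp6v0c-ps2 was 0.93 ± 0.29 and that of Atp6v0c 0.64 ± 0.17 (adjusted p = 0.0275 and 0.0126), and that of Dynlt1b was 0.85 ± 0.28 (adjusted p = 0.0322).

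Both members that did not pass have low counts in the WT libraries. Tmem181b-ps differed by 0.42 ± 0.30 (adjusted p = 0.361), beside 0.56 ± 0.12 for Tmem181a, which rose (adjusted p = 0.00402). Gm9825, on 2 to 18 counts per WT library, differed by 0.86 ± 0.61 (adjusted p = 0.272). It did not pass the filter in a fit of the WT groups alone. Rnps1 differed by 0.20 ± 0.14 (adjusted p = 0.263). Copy and parent were not tested against each other. Calls for low members rested on single libraries: Dynlt1b lost its call without WT skin replicate 2 or 3 or WT SCC replicate 1 or 3 (adjusted p = 0.0783 to 0.107), and Atp6v0c-ps2 without WT skin replicate 2 or 3 or WT SCC replicate 2 or 3 (adjusted p = 0.0788 to 0.0875). Gm4864 lost it without WT skin replicate 1 or WT SCC replicate 1 or 3 (adjusted p = 0.0549 to 0.0618), Atp6v0c without WT SCC replicate 2 (adjusted p = 0.0528), and Rpl11 without WT SCC replicate 1 (adjusted p = 0.0545). Keratinocyte markers were higher and muscle and fibroblast markers lower in WT SCC than in WT skin (fibroblast markers, 5 genes, at 1590 to 2800 and 3670 to 22300 CPM), and their part in these increases was not tested.

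**Figure D4:**
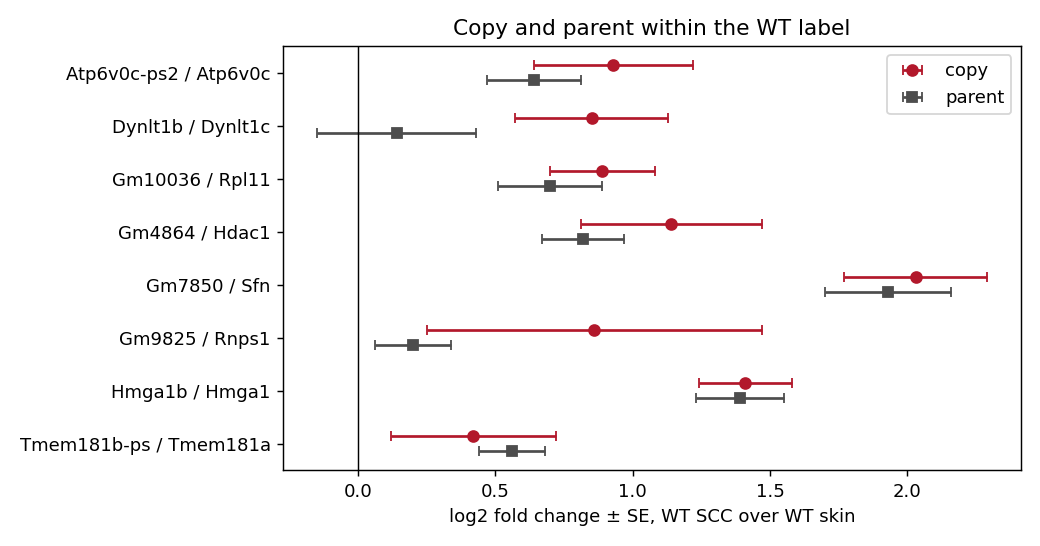
Log2 fold change of WT SCC over WT skin with its standard error (n = 3 libraries each), for each copy (red circles) and its parent or closest relative (grey squares). For Hmga1b and Hmga1 the values are 1.41 and 1.39 and for Gm7850 and Sfn 2.03 and 1.93; Dynlt1b at 0.85 and Dynlt1c at 0.14 are farthest apart.

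Within the KO label, between SCC and papilloma, 0 of 10 members passed the same test, where 0.286% of all genes tested did (64 genes). That number of genes was 611 with no filter and 941 with DESeq2, which called 0 of the members. At an unadjusted p under 0.05 there was 1 member, Gm4864, with a log2 fold change of 1.88 ± 0.51 and an adjusted p of 0.159, on 2 to 13 counts per library. It entered the test only through its counts in the WT libraries. Hdac1 differed by 0.37 ± 0.16 there. Hmga1 and Hmga1b differed by 0.19 ± 0.18 and 0.17 ± 0.18, and Atp6v0c-ps2 and Atp6v0c by -0.11 ± 0.25 and -0.08 ± 0.20. With 1 of these 5 libraries left out, KO SCC replicate 2 included, 0 members passed, but only 0 to 84 of all genes did. Without either KO SCC library that arm holds 1 library, which is assumed to vary like the other groups. In simulated counts this comparison found 13% of genes changed 2-fold and 49% of those changed 4-fold, so changes of this size can be missed.

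Other genes of the same complexes and families were read against the 8.41% of all genes that separated the labels. None of the 23 tested V-ATPase genes separated the 6 WT from the 5 KO libraries, nor did Dynlt3, a related dynein light chain. Of 12 tested cytoplasmic dynein genes, 1 did: Dynll1, at 318 to 792 CPM in WT and 960 to 1480 CPM in KO. Of 8 tested HMG protein genes 2 did. Hmga2, the relative of Hmga1, was at 0.458 to 45.8 CPM in WT and 49.7 to 95.8 CPM in KO, and the nucleosome-binding gene Hmgn2 at 36.6 to 69.7 and 79.4 to 93.7 CPM. From WT skin to WT SCC, where 40.5% of all genes passed, 6 of the 23 V-ATPase genes rose and 5 fell, Atp6v1b2 by 1.15 ± 0.14 (adjusted p = 0.000115) and Atp6v1c2 by -2.47 ± 0.23 (adjusted p = 2.68e-05). Of the 12 dynein genes 7 rose, among them Dynlt1f by 1.51 ± 0.16 (adjusted p = 6.29e-05), and 1 fell, Dynll2. Hmga2 rose by 5.82 ± 0.39 (adjusted p = 5.70e-06). In KO SCC against KO papilloma no gene of the 3 lists passed.

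The parents lie in 3 places. Atp6v0c, Rnps1 and Hmga1 lie within 3.40 Mb of chromosome 17, and their starts are 2.34, 2.09 and 1.05 Mb from that of Dusp1. Dynlt1b and Tmem181b-ps lie on the same chromosome, 20.1 Mb from Dusp1. Hdac1, Sfn and Rpl11 lie within 6.54 Mb of chromosome 4. Member copies whose parents or relatives lie on chromosome 17 were higher with the KO label, and member copies of the chromosome 4 genes were higher with the WT label. The members were selected on this contrast, and other copies of genes in these places did not all separate the labels. The member copies of parents near Dusp1 are themselves on chromosomes 6 and 11, and those of the chromosome 4 parents on chromosomes 8, 12 and 18. Among the 359 tested genes that start within 1 Mb of a member, 13.1% separated the labels, 18 higher in KO and 29 higher in WT, against 8.41% of all genes tested. Around Atp6v0c it was 15 of 81 genes (18.5%), and around Gm10036 it was 0 of 5.

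All processed pseudogenes were then searched for the same pattern, with a set and thresholds chosen after the members' values had been seen. Of those tested, 1170 aligned to a protein-coding parent with at least 90% identity over at least 80% of their length. In 63 of them (5.38%) the labels did not overlap, 50 higher in KO and 13 higher in WT. A gap above 1 in log2 CPM was found in 7. Among these 7, there were 3 with a parent within 20 Mb of Dusp1 (3 of 63 such pseudogenes) and 4 with a parent in the chromosome 4 interval spanned by Hdac1 and Rpl11 (4 of 14); the count was 0 of 1024 for parents on other chromosomes, 0 of 55 for parents elsewhere on chromosome 4 and 0 of 14 for parents elsewhere on chromosome 17. Of the 7, 5 are members, which were selected on this contrast and define the interval. The other 2 were Rps2-ps6 on chromosome 14 and Gm11223. Rps2-ps6, a copy of the ribosomal protein gene Rps2 (chromosome 17, start 24718116), was at 0.617 to 1.69 CPM in WT, at 22.1 to 58.2 CPM in 4 KO libraries and at 5.89 CPM in KO SCC replicate 1. Gm11223, a copy of the microtubule regulator gene Stmn1 (chromosome 4, start 134468320), had a mean of 3.67 CPM in WT and 0.761 CPM in KO, with a gap of 1.39. The next below the threshold was Gm48667, with a gap of 0.80. With the members left out, 4 of 11 pseudogenes with a parent in the chromosome 4 interval separated the labels (36.4%), all higher in WT, as did 3 of 61 with a parent within 20 Mb of Dusp1 (4.92%) and 49 of 1024 with a parent on another chromosome (4.79%). The 11 have 7 parents, and among the 4 is Gm10093, a copy of Hdac1 like the member Gm4864. They are therefore not independent of the members.

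**Figure D5:**
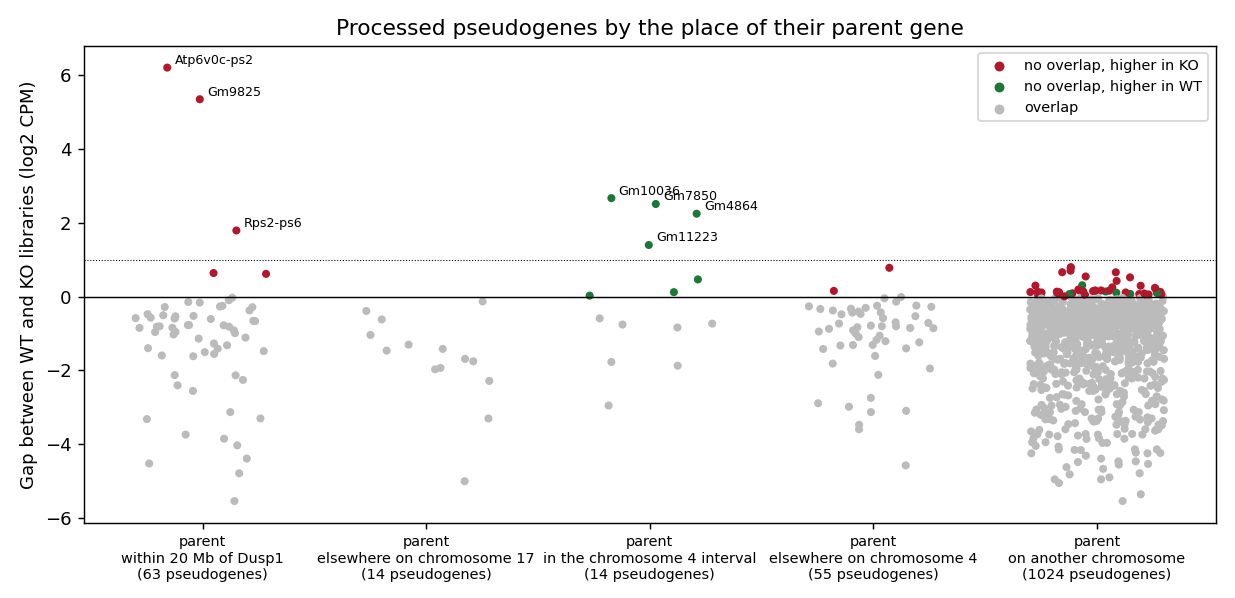
Gap in log2 CPM between the 6 WT and the 5 KO libraries for 1170 processed pseudogenes, by the place of the parent gene; values above 0 mean no overlap (red higher in KO, green higher in WT), and the dotted line marks 1. All 7 points above the line have a parent within 20 Mb of Dusp1 or in the chromosome 4 interval, and 5 of them are members.

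A further copy of Hdac1, Gm10093 on chromosome 17, had the direction of Gm4864: it was at 15.9 to 32.5 CPM in WT and 7.31 to 11.5 CPM in KO. Among genes that are not members, the one most like Dynlt1b, Atp6v0c-ps2 and Tmem181b-ps over the 11 libraries was Dlg3 on the X chromosome (Pearson's r of log2 CPM 0.991, 0.991 and 0.980), with means of 31.7 CPM in WT and 60.1 CPM in KO. Members were not always more alike: r was 0.995 between Dynlt1b and Atp6v0c-ps2, 0.991 between Dynlt1b and Tmem181b-ps and 0.989 between Atp6v0c-ps2 and Tmem181b-ps. The non-member Smpd3 (r = 0.990) was closer to Hmga1b than any member was, the closest being Atp6v0c-ps2 (r = 0.977). Likewise Tagap1 (r = 0.982) was closer to Gm10036 than the closest member, Gm7850 (r = 0.970). For Gm4864 the 3 non-members most like it were Cib2 (r = 0.969), Gm10093 (r = 0.968) and Primpol (r = 0.967). Those for Atp6v0c were Igkv6-23 (r = 0.979), Rnps1 (r = 0.978) and Ehbp1l1 (r = 0.974), below the member Gm7850 (r = 0.985). These coefficients describe 11 libraries in which the label alone parts the values.

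The human counterparts in the A431 tumours gave a test in cells the selection did not use. DUSP1 stood at 467 to 485 CPM with the Tomato guide and 71.0 to 77.1 CPM with the DUSP1 guide. Changes of the counterparts were small, and 47.6% of all 18090 genes tested passed in either direction. ATP6V0C was at 8.59, 8.61 and 7.80 CPM in the control tumours and 7.29, 10.5 and 10.1 CPM with the DUSP1 guide, a log2 fold change of 0.15 ± 0.12 (adjusted p = 0.312). Its pseudogene ATP6V0CP4 rose from 2.04, 1.44 and 2.10 CPM to 3.09, 3.72 and 2.63 CPM (0.76 ± 0.19, adjusted p = 0.00281). HMGA1 rose by 0.15 ± 0.05 (adjusted p = 0.0155), a call lost without control replicate 1 or 2 or DUSP1-guide replicate 3 (adjusted p = 0.0573 to 0.131) and with no filter (adjusted p = 0.0618). HMGA2 rose by 1.5 ± 0.06 (adjusted p = 7.72e-13). RNPS1 rose by 0.25 ± 0.05, while TMEM181 (-0.24 ± 0.05), RPL11 (-0.16 ± 0.05) and SFN (-0.28 ± 0.04) fell (adjusted p = 0.000672, 0.00133, 0.00659 and 2.05e-05). RPL11 lost its call without DUSP1-guide replicate 2 (adjusted p = 0.0576). DYNLT1 differed by -0.12 ± 0.05 (adjusted p = 0.069) and passed without DUSP1-guide replicate 1 (adjusted p = 0.0280), as ATP6V0C did (0.30, adjusted p = 0.0114). With its pseudogene rows added, ATP6V0C rose by 0.29 (adjusted p = 0.0252). HDAC1 differed by 0.05 ± 0.04 (adjusted p = 0.414). No counterpart of a member or of its parent differed by as much as 1 in log2 fold change. HMGA2, which did, is the counterpart of Hmga2, a relative of Hmga1 that is not a member.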

How the data were processed

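The authors deposited 1 table of raw counts per gene for mouse and 1 for A431. HISAT2, StringTie and DESeq with the builds mm10 and hg38 are named, without versions, in the submitters' processing notes. For the counting rule, strand setting, multiply matching reads and annotation, the settings remain not given in the sources used here. Features without a gene name (0.115 to 0.496% of counts in mouse) were left out. From the counts, edgeR 4.0.16 in R 4.3.3 was run with its default filter, TMM and the quasi-likelihood test, two-sided, with all 11 mouse libraries in 1 fit and the 6 A431 libraries in another. Adjusted p-values are Benjamini-Hochberg values over all genes tested, with a threshold of 0.05. Log2 CPM for gaps and correlations used a prior count of 1. Copies were aligned by BLAST to GENCODE M21 transcripts. Replicate numbers did not pair libraries (r of same-numbered deviations -0.17 to 0.21). Named were all members, their families and parents, the 3 non-members most like each and the 5 with the widest gap in each direction, and of each list the genes with the lowest p. Members and lists were chosen with earlier results of these data known. Tests were run on simulated counts. Alternatives were RLE factors, DESeq2 1.42.0, no filter, the replicate block, summed copies, the compared groups alone and each library left out.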

Additional observations from a re-analysis of the deposited data

How the results depend on the processing

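Of the 10 members, 9 separated the labels with plain CPM, with RLE factors and with each of the 11 libraries left out. The share of neighbours that separated them was 11.5% within 0.5 Mb and 12.9% within 2 Mb. With copies summed, the sums of 5 families separated the labels, beside 8.41% of all genes tested. These sums hold members selected for that. The 64 calls of KO SCC against KO papilloma became 611 with no filter, 941 with DESeq2 and 1 with the replicate block, and 0 to 84 with 1 library left out: 0 without KO papilloma replicate 3 or KO SCC replicate 1 (2560 and 1288 genes at an unadjusted p under 0.05 in edgeR), 7 without KO SCC replicate 2 and 12 without KO papilloma replicate 1. The replicate block gave 7874 calls for WT SCC against WT skin, where Dynlt1b lost its call (adjusted p = 0.0513), and 8521 in A431. In a fit of 1 label alone Gm9825 (WT) and Gm4864 (KO) did not pass the filter. Signs turned only for differences that passed no test. In KO SCC against KO papilloma, Gm9825 had a log2 fold change of 0.11 with the block, and with copies summed the Tmem181 rows had -0.04 and Gm10036 with Rpl11 0.24. With 1 library left out, the ranges there were -0.23 to 0.04 for Atp6v0c, -0.29 to 0.04 for Atp6v0c-ps2, -0.57 to 0.04 for Gm7850, -0.34 to 0.15 for Sfn, -0.17 to 0.00 for Rnps1, -0.27 to 0.25 for Tmem181b-ps and -0.01 to 0.47 for Rpl11. For Gm9825 in WT SCC against WT skin the range was -0.01 (without WT SCC replicate 3) to 1.69. The causes were not tested. Low counts limit Gm9825, Dynlt1b and Tmem181b-ps in WT and Gm7850 and Gm4864 in KO.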

Other observations

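Among genes that are not members and had a mean log2 CPM of at least 1, the widest gaps between the labels were those of Tpsab1, a mast cell tryptase gene (0.0529 to 2.01 CPM in WT, 21.6 to 43.3 CPM in KO), the late cornified envelope genes Lce3b, Lce3d and Lce3e of the differentiated epidermis (means 17, 21.3 and 12.8 CPM in WT, 332, 271 and 193 CPM in KO) and the small proline-rich gene Sprr2b (2.76 to 4.70 and 28.6 to 91.5 CPM). Tpsab1 lies on chromosome 17, start 25343245, between Rnps1 and Dusp1. In the other direction the widest were the immunoglobulin genes Iglv1 and Igkc (means 8.36 and 242 CPM in WT, 0.790 and 17.7 CPM in KO), the muscle gene Tnnt3, the radial spoke gene Rsph3b (10.9 to 12.3 CPM in WT, 2.68 to 4.19 CPM in KO) and Rnps1. Rsph3b starts at 6904413 on chromosome 17, near the Dynlt1 rows. The tryptase, envelope, proline-rich and immunoglobulin genes have close relatives. The parts of counts split among relatives, of strain and of cell types in these gaps were not tested.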
